A study of Mus musculus with 26 samples.

Results

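The subunits described here are the small proteins of the membrane sector of mouse mitochondrial ATP synthase, chosen by gene symbol: the c subunit genes Atp5g1, Atp5g2 and Atp5g3, subunit e (Atp5k), subunit g (Atp5l), subunit f (Atp5j2), the DAPIT protein (Usmg5) and the small proteolipid encoded by 2010107E04Rik. Of these 8 genes, 6 were listed in the brown fat count tables, which hold 9378 genes in all. Atp5g3, Atp5k, Atp5j2 and 2010107E04Rik were in both deposited tables, and Atp5l and Usmg5 were in the IgG table alone. No row carried the symbol Atp5g1 or Atp5g2, so of the c subunit genes Atp5g3 alone was followed and its paralogs were not compared.

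The study recovered RNA with an antibody against IMP2 (Igf2bp2), a protein that binds mRNAs and influences how they are translated, and its title names translation of Ucp1 mRNA and of mRNAs for mitochondrial proteins as the question. IMP2 immunoprecipitates came from brown fat of wild-type mice (WT IP, 3 libraries, numbered 21, 22 and 25) and of Imp2-/- mice (KO IP, libraries 23 and 24). An immunoprecipitate with IgG came from wild-type mice (1 library, number 26), and total RNA came from Imp2-/- mice (KO total, libraries 18 and 19) and wild-type mice (WT total, libraries 15, 16, 17 and 20). All mice were males aged 10 weeks on a C57Bl/6J background, bred from Imp2+/- parents as littermates, fed normal chow and kept at 4 °C overnight. The labels name no tissue limit to the knockout and do not say whether the libraries of 1 group are separate animals. P-values therefore measure the spread between these libraries, which may be technical. The 14 liver samples were not analysed here.

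ATP synthase lets protons flow back through the inner mitochondrial membrane and uses that flow to make ATP. Its c subunits form the ring that turns as protons pass. The c subunit genes encode the same mature protein behind different import sequences. Subunits e, f and g sit beside the ring, and e and g hold neighbouring ATP synthases together in the rows that bend the membrane into cristae. DAPIT and the small proteolipid are peripheral membrane subunits that help to keep the complex stable and paired. In brown fat, UCP1 lets protons bypass ATP synthase to release heat, and the tissue is known for little ATP synthase relative to its respiratory chain, with supply of the c subunit as the known limit. Of the c subunit genes Atp5g3 alone was listed, so the values below do not measure that supply.

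The genes lie apart in the genome (RefSeq, GRCm38.p6, the assembly the submitters name as mm10). Atp5g3 spans chr2:73908447-73912464, Atp5k spans chr5:108433246-108434399 and Atp5j2 spans chr5:145183704-145191541. The small proteolipid gene 2010107E04Rik, listed by RefSeq as Atp5mpl, spans chr12:111961374-111967009. Atp5l spans chr9:44913248-44920742, and Usmg5, listed as Atp5md, spans chr19:47083471-47090647. By symbol, RefSeq names 4 pseudogenes for Atp5k and 3 for Atp5l, including Atp5l2-ps. Copies with other names were not searched for any member. How reads shared with copies were counted is not given in the sources used here, so the members' counts are uncertain in that respect. Each value below counts reads over 1 RefSeq transcript per gene.

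The 250 bases before the start in the promoter entry are shown for Atp5g3 (chr2:73911327-73911576), Atp5k (chr5:108434400-108434649) and Atp5j2 (chr5:145191542-145191791). All are on the minus strand and written in the direction of the gene. The windows of Atp5k and Atp5j2 lie just before the gene spans given above. That of Atp5g3 lies inside its span, so its motif and GC values do not describe bases before the whole gene. These genes are shown because the immunoprecipitate values of Atp5k, given below, spread over a wider range than those of Atp5g3 and Atp5j2. Capitals mark matches, on either strand, to GCATGCGC, the core of the motif of nuclear respiratory factor NRF1, or to CCAAT, a common proximal promoter motif.
Atp5g3: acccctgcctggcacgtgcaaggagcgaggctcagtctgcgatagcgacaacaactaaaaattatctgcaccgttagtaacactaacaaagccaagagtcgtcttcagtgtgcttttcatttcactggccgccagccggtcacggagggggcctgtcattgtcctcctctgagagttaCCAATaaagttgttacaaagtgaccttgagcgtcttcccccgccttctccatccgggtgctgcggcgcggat
Atp5k: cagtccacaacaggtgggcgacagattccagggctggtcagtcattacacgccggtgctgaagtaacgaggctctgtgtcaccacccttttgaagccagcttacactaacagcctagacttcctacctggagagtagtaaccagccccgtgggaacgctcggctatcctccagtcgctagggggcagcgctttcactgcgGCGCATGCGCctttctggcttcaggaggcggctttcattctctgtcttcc
Atp5j2: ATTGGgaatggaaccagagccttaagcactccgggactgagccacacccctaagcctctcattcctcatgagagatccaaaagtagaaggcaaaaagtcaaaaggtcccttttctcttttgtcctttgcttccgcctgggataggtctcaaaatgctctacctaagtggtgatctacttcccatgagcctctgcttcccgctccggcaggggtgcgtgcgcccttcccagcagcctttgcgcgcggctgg
The Atp5k promoter held GCATGCGC on both strands at 1 overlapping place, a motif found in 2.32% of 27025 RefSeq promoters of the same length. The windows of Atp5g2 and Atp5l, not printed, held it as well, so 3 of the 7 members with a promoter entry did. The Atp5g3 and Atp5j2 promoters each held 1 CCAAT match, in Atp5j2 at the far end of the window and on the other strand, and 34.5% of all promoters hold that motif. CCGGAAG, the core bound by ETS factors, and TATAAA were searched too and were in none of the printed windows, against 7.05 and 13.0% of all promoters. Among the windows not printed, Atp5l held both of these and Usmg5 held TATAAA. Those of Atp5g1, Atp5l and Usmg5 held CCAAT. G and C made up 54.0, 57.6 and 54.4% of the windows of Atp5g3, Atp5k and Atp5j2, with a median of 52.0% over all promoters. These matches are letters in a window and were not tested for binding or for any part in the immunoprecipitate values. The small proteolipid gene 2010107E04Rik had no promoter entry.

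Levels are given in CPM, read counts scaled to a common library total by edgeR's TMM factors and relative to the genes a table lists. The tables list different genes, so their CPM values are not on 1 scale, and values of different genes are not ranked because transcript lengths were not used. The knockout table holds libraries 16 to 19 and 21 to 24 with 1189 genes, of which 4 are members, and its gene counts per library ran from 780333 to 4916160. The IgG table holds libraries 15, 20, 25 and 26 with 9378 genes, of which 6 are members, and its gene counts ran from 1321756 to 3750103. All 6 members passed the filter on low counts. With so few libraries a group, groups can lie apart by chance, and the share of all genes whose groups do so was not computed. Summed markers of brown adipocytes were high in every library, at 25162 to 33860 CPM in the knockout table (5 of 8 markers listed) and 14401 to 21902 CPM in the IgG table (8 of 8). None of 7 macrophage and leukocyte and none of 5 endothelial markers was listed in the knockout table. The knockout table did not list Igf2bp2, which leaves the Imp2-/- label unchecked there. In the IgG table Igf2bp2 had 8 counts in the IMP2 immunoprecipitate, 16 in the IgG immunoprecipitate, and 20 and 16 in total RNA.

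In total RNA none of the 4 members differed between Imp2-/- and wild-type brown fat by the edgeR quasi-likelihood test, where 0.0% of the 1189 genes passed an adjusted p of 0.05 (74 genes were higher and 58 lower at an unadjusted p under 0.05, and DESeq2 called 18 and 17). Subunit f, Atp5j2, had 4012 and 3241 CPM in KO total RNA, against 3060 and 2849 CPM in WT total RNA. The log2 ratio was 0.30 ± 0.13 (SE, edgeR adjusted p = 0.444). The c subunit gene Atp5g3 had 1836 and 2024 CPM in KO total RNA, against 1747 and 1950 CPM in WT total RNA. The small proteolipid 2010107E04Rik had 2137 and 2127 CPM in KO total RNA, against 2151 and 2348 CPM in WT total RNA. Subunit e, Atp5k, had 4344 and 3632 CPM in KO total RNA, against 3419 and 4221 CPM in WT total RNA. The log2 ratios of Atp5g3, Atp5k and 2010107E04Rik were 0.06 ± 0.11, 0.06 ± 0.25 and -0.08 ± 0.10. Intervals of 2 SE ran from -0.27 to 0.12 for the proteolipid and from -0.43 to 0.56 for Atp5k. They give the log2 changes that these libraries leave possible, and not the smallest change that would pass the test. In whole tissue, fewer cells of a type and less RNA per cell cannot be told apart.

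The wild-type IMP2 immunoprecipitate held less of the small proteolipid and of subunit f mRNA, relative to the other listed genes, than total RNA did. The small proteolipid 2010107E04Rik had 1278 and 1333 CPM in WT IP, against 2151 and 2348 CPM in WT total RNA. Atp5j2 had 1760 and 1667 CPM in WT IP, against 3060 and 2849 CPM in WT total RNA. Both genes fell by 0.79 on the log2 scale (SE 0.10 and 0.13, edgeR adjusted p = 0.00168 and 0.00498). In these immunoprecipitates the proteolipid stood at 58.0% of its share in total RNA.

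The c subunit gene Atp5g3 had 1474 and 1460 CPM in WT IP, against 1747 and 1950 CPM in WT total RNA. Its log2 ratio of -0.33 ± 0.11 missed the threshold with an edgeR adjusted p of 0.0545. With DESeq2 the adjusted p was 0.0263 at a log2 ratio of -0.32. Over 20 settings the log2 ratio ran from -0.41 to -0.19. Atp5g3 passed with DESeq2, with each transcript as its own row and with the replicate block described at the end, and with no other setting. Atp5k had 2721 and 4714 CPM in WT IP, against 3419 and 4221 CPM in WT total RNA. The wild-type immunoprecipitates of Atp5k lay on either side of total RNA, with a log2 ratio of -0.04 ± 0.25 (edgeR adjusted p = 0.916). Thus 2 of the 4 members were called lower, against 12.4% of the 1189 genes of the table (148 lower and 118 higher, so that 44.4% of the calls were higher, against 56.9% with library size alone and 69.5% with upper-quartile scaling). The median log2 ratio of the 4 members was -0.56, against 0.01 over all genes tested.

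The IMP2 antibody on Imp2-/- tissue gave lower values of all 4 members than Imp2-/- total RNA. The small proteolipid 2010107E04Rik had 1219 and 1219 CPM in KO IP, against 2137 and 2127 CPM in KO total RNA. Atp5j2 had 1881 and 1917 CPM in KO IP, against 4012 and 3241 CPM in KO total RNA. These genes fell by 0.81 and 0.93 on the log2 scale (SE 0.10 and 0.13, edgeR adjusted p = 0.000933 and 0.00202).

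Atp5k had 2416 and 1997 CPM in KO IP, against 4344 and 3632 CPM in KO total RNA. The c subunit gene Atp5g3 had 1487 and 1553 CPM in KO IP, against 1836 and 2024 CPM in KO total RNA. Atp5k fell by 0.85 and Atp5g3 by 0.34 on the log2 scale (SE 0.25 and 0.11, edgeR adjusted p = 0.0360 and 0.0433). In all, 4 of the 4 members were called lower, against 15.7% of the genes of the table (187 lower and 126 higher), and the members' median log2 ratio was -0.83, against -0.01 over all genes. Scaled by library size alone or by the upper quartile, 2 of the 4 were called, and the adjusted p of Atp5k was then 0.0504 and 0.0503 and that of Atp5g3 0.159 and 0.238. Under these scalings the median of all genes was 0.12 and 0.16 on the log2 scale in place of -0.01, and the table had 145 lower and 246 higher genes, or 130 lower and 273 higher. Limma-voom did not call Atp5g3 either (adjusted p = 0.0617). Nor did edgeR with transcripts summed or with only these groups fitted (edgeR adjusted p = 0.0619 and 0.0954). Atp5g3 was not called when any 1 of the 8 libraries was left out (edgeR adjusted p = 0.0578 to 0.229). Without library 18, 19, 23 or 24 in turn the edgeR adjusted p of Atp5k was 0.145, 0.0531, 0.0749 and 0.161, and the proteolipid and subunit f stayed called each time.

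**Figure D1:**
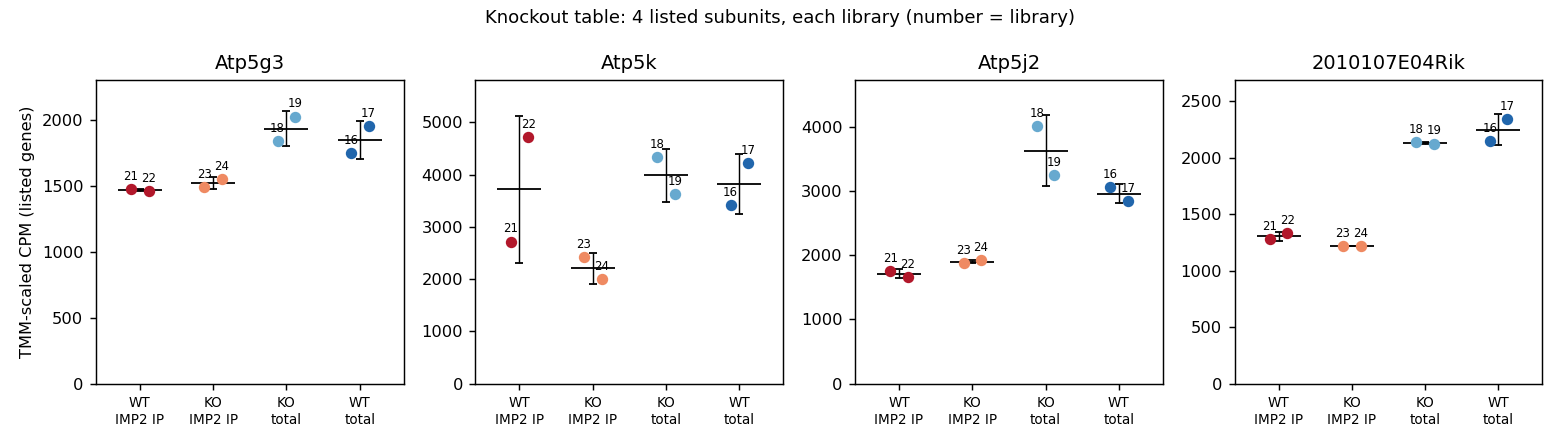
CPM of Atp5g3, Atp5k, Atp5j2 and 2010107E04Rik in the 8 libraries of the knockout table, by group; points are libraries and bars are means with the SD of 2 libraries. The immunoprecipitates of 2010107E04Rik and Atp5j2 lie below the total RNA libraries of both genotypes, and the WT IP values of Atp5k, 2721 and 4714 CPM, span those of total RNA.

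Setting the recovery of wild-type tissue (WT IP over WT total) against that of Imp2-/- tissue (KO IP over KO total) asks what an mRNA gained from the presence of IMP2, relative to the other listed genes. The scaling centres the listed genes, whose median difference was -0.002, so a value near 0 is average for this list. Such a value does not show that IMP2 added nothing. The difference was 0.01 ± 0.15 for Atp5g3, 0.02 ± 0.14 for 2010107E04Rik and 0.15 ± 0.18 for Atp5j2 on the log2 scale. Intervals of 2 SE ran from -0.29 to 0.31, from -0.26 to 0.30 and from -0.22 to 0.51. Atp5k stood apart at 0.81 ± 0.35, the highest value of the 1189 genes, with an unadjusted p of 0.0478 and an edgeR adjusted p of 0.999. Of the 4 members 0 were called in either direction, and so was 0.0% of the table (29 genes were higher and 0 lower at an unadjusted p under 0.05, and DESeq2 and limma-voom called 0).

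The value of Atp5k moved with the libraries of WT IP. Without library 22 the difference was 0.36 ± 0.27, and without library 21 it was 1.14 ± 0.26 (edgeR adjusted p = 0.996 and 0.810). Library 22 had the fewest gene counts of the table, 780333, and the highest sum of skeletal muscle markers among its immunoprecipitates. The 7 muscle markers listed, none at 0 in any library, summed to 1354 CPM in library 21 and 6340 CPM in library 22 (WT IP), 315 and 1153 CPM in KO IP, 549.8 and 2250 CPM in KO total RNA, and 2494 and 9824 CPM in WT total RNA. Their part in the Atp5k value was not tested. In this table no gene had a difference below -0.30 while 138 lay above 0.30, so genes recovered less from wild-type tissue by more than that are not listed, and the filter behind the listing is not given in the sources used here.

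Compared directly, WT IP held 2721 and 4714 CPM of Atp5k, against 2416 and 1997 CPM in KO IP. The log2 ratio was 0.75 ± 0.25, with an edgeR adjusted p of 0.187. DESeq2 gave 0.74 with an adjusted p of 0.0126, and edgeR gave 0.30 without library 22 and 1.07 without library 21. The other members differed less: the log2 ratio was 0.10 ± 0.10 for 2010107E04Rik, -0.05 ± 0.11 for Atp5g3 and -0.15 ± 0.13 for Atp5j2. Of the 4 members 0 were called, as was 0.0% of the table by edgeR (123 genes higher and 88 lower at an unadjusted p under 0.05, and 60 and 33 called by DESeq2).

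The IgG immunoprecipitate shows what binds without an IMP2 antibody, and there the small proteolipid was the member most reduced against total RNA. 2010107E04Rik had 311.2 CPM in the IgG library, against 1374 and 1788 CPM in WT total RNA of the same table. It fell by 2.35 on the log2 scale (SE 0.46, edgeR adjusted p = 0.000366) and was the 27th lowest of 8966 genes tested (24.0% of the calls in this comparison were higher, against 51.8% with library size alone, under which the proteolipid was still called lower). Atp5j2 had 663.1 CPM in the IgG library, against 1342 and 2003 CPM in WT total RNA, a log2 ratio of -1.33 ± 0.43 (edgeR adjusted p = 0.0763). For both genes the IgG library lay below both total RNA libraries. A single library can do so by chance, and the share of all genes that did so was not computed. The 12 skeletal muscle markers, all listed and none at 0, summed to 5952 CPM in the IgG library and 8477 CPM in the IMP2 immunoprecipitate of this table, against 16639 and 8626 CPM in total RNA, and their part in these ratios was not tested.

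Atp5k had 2083 CPM in the IgG library, against 3275 and 3003 CPM in WT total RNA. The c subunit gene Atp5g3 had 606.5 CPM in the IgG library, against 863.9 and 798.6 CPM in WT total RNA. Their log2 ratios were -0.59 ± 0.43 and -0.45 ± 0.41, and neither passed the test. Of the 6 members 1 was called lower, against 1.52% of the genes of the table, and the median of the 6 was -0.69, against -0.01 over all genes. The IgG group has 1 library, whose spread is taken from the total RNA libraries and shared over genes.

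Subunit g and DAPIT were close to the counting floor. Atp5l had 18 counts in the IgG library, against 6 and 27 in WT total RNA (libraries 15 and 20), and Usmg5 had 18 counts, against 2 and 28. In the IMP2 immunoprecipitate of this table they had 6 and 13 counts. The exact 95% Poisson interval of the 2 counts of Usmg5 in library 15 runs from 0.242 to 7.22, and it covers counting error only. The log2 ratios of IgG over total RNA, -0.79 ± 0.74 and -0.59 ± 0.74, show no difference detectable at this depth. Which part of these transcripts was counted was not tested.

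The IMP2 immunoprecipitate of the IgG table, library 25, had lower values of the proteolipid and subunit f than total RNA, without passing the test. 2010107E04Rik had 951.4 CPM in WT IP, against 1374 and 1788 CPM in WT total RNA, and Atp5j2 had 960.0 CPM, against 1342 and 2003 CPM. The log2 ratios were -0.73 ± 0.42 and -0.80 ± 0.42 (edgeR adjusted p = 0.695 and 0.648). Atp5k at 3231 CPM lay between its total RNA values, and Atp5g3 at 763.6 CPM lay just below them, with log2 ratios of 0.04 ± 0.42 and -0.12 ± 0.41. Atp5l and Usmg5 had log2 ratios of -0.69 ± 0.89 and 0.61 ± 0.77. Of the 6 members 0 were called, against 0.859% of the genes of the table that were called lower.

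Within the IgG table the comparison of IMP2 with IgG sets library 25 against library 26. The only replicates behind the SE are the 2 total RNA libraries, with 1 residual degree of freedom. edgeR shares their spread over genes, so the SE hardly follows a gene's own libraries. In IgG over WT total it was 0.41 for Atp5g3, with 864 and 799 CPM in total RNA. For Atp5b it was 0.42, with 1531 and 5217 CPM in total RNA. 2010107E04Rik had 951.4 CPM in WT IP, against 311.2 CPM in the IgG library, a log2 ratio of 1.61 ± 0.48 that did not pass the test (edgeR adjusted p = 0.189). The other ratios on the log2 scale were 1.21 ± 0.87 for Usmg5, 0.63 ± 0.48 for Atp5k, 0.53 ± 0.47 for Atp5j2, 0.33 ± 0.47 for Atp5g3 and 0.10 ± 0.98 for Atp5l. Of the 6 members 0 were called, against 0.0558% of the genes that were called higher (5 of 8966, with 223 at an unadjusted p under 0.05 and 2 called by DESeq2).

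**Figure D2:**
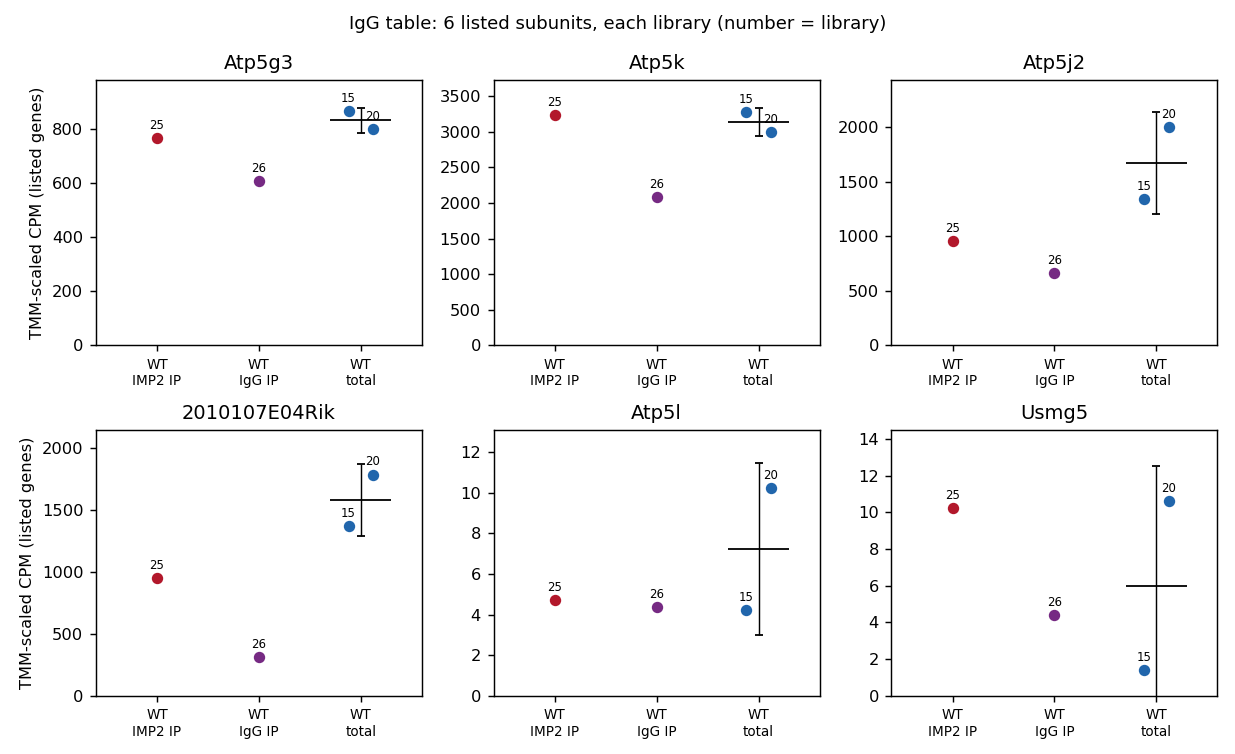
CPM of the 6 listed members in the 4 libraries of the IgG table, by group; points are libraries, and the bar of total RNA is the mean of 2 libraries with their SD. The IgG library has 311.2 CPM of 2010107E04Rik, below the IMP2 immunoprecipitate at 951.4 CPM and both total RNA libraries, and Atp5l and Usmg5 lie at or below 10.6 CPM in every library.

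For the 4 members in both tables a fit with a term for the table joined 3 WT IP, 1 IgG and 4 WT total libraries. The 1 IgG library adds nothing to the estimate of spread, which comes from the other groups. Its SE and p-values therefore do not measure the spread between IgG immunoprecipitates. In WT IP over IgG, 2010107E04Rik was higher with a log2 ratio of 1.37 ± 0.21 (edgeR adjusted p = 0.0113), a fold of 2.58 and the 3rd highest of 1189 genes. This made 1 of 4 members called higher, against 0.336% of the genes, or 4 in all. Without library 25, the IMP2 immunoprecipitate that shares a table with the IgG library, the ratio was 1.44 ± 0.27 and the adjusted p was 0.0898. The other ratios were 0.37 ± 0.30 for Atp5k, 0.32 ± 0.26 for Atp5j2 and 0.02 ± 0.18 for Atp5g3.

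In the same fit WT IP over WT total was -0.81 ± 0.13 for 2010107E04Rik and -0.84 ± 0.16 for Atp5j2 on the log2 scale (edgeR adjusted p = 0.00129 and 0.00275). Atp5g3 had -0.30 ± 0.11 and Atp5k -0.05 ± 0.18 (edgeR adjusted p = 0.0630 and 0.852). Thus 2 of 4 members were called lower, against 14.5% of the genes. Of the calls of all genes 49.3% were higher, against 70.6% with upper-quartile scaling. In IgG over WT total 2010107E04Rik had -2.18 ± 0.21, the 2nd lowest of 1189 genes, and Atp5j2 had -1.15 ± 0.25 (edgeR adjusted p = 0.000303 and 0.0120). Atp5k had -0.43 ± 0.29 and Atp5g3 -0.32 ± 0.17, so again 2 of 4 members were called lower, against 11.9% of the genes (49.5% of the calls were higher, against 68.5% with upper-quartile scaling). Both ratios use the same total RNA libraries, and the spread behind the IgG ratio again comes from the other groups.

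The IMP2 antibody on Imp2-/- tissue and IgG on wild-type tissue are both immunoprecipitations without IMP2 bound by its antibody, and they gave different values for the proteolipid. Its recovery in KO IP over KO total exceeded that in IgG over WT total by 1.42 ± 0.25 on the log2 scale, the 3rd highest of 1189 genes, with an edgeR adjusted p of 0.0579. Over 21 settings the difference ran from 1.22 to 1.47 on the log2 scale. The difference passed the threshold with DESeq2, with limma-voom and by edgeR without library 15, and with no other setting. The differences were 0.27 ± 0.31 for Atp5j2, 0.03 ± 0.22 for Atp5g3 and -0.37 ± 0.36 for Atp5k. By edgeR 0 of 4 members were called higher, as was 0.0% of the genes (73 higher and 58 lower at an unadjusted p under 0.05, with 14 and 18 called by DESeq2). This difference rests on 1 IgG library, and antibody, genotype and table differ together in it and cannot be told apart.

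**Figure D3:**
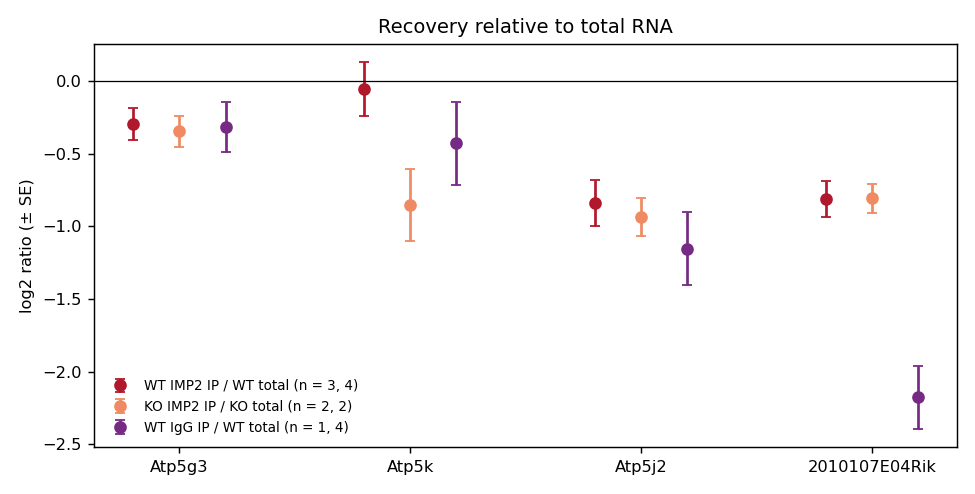
Log2 ratio of each immunoprecipitate over total RNA of its genotype for the 4 members listed in both tables, with SE; WT IP and IgG come from the fit of both tables and KO IP from the knockout table. The ratio of 2010107E04Rik is -0.81 in WT IP and -0.81 in KO IP and -2.18 in IgG, and Atp5k has -0.05 in WT IP and -0.85 in KO IP.

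Count ratios of 2 members within a library need no scaling between libraries. The pairs were not planned, and they use the same counts as the values above, so they are no separate evidence. The ratio of the proteolipid 2010107E04Rik to the c subunit gene Atp5g3 was 0.867, 0.913 and 1.25 in WT IP (libraries 21, 22 and 25), 0.819 and 0.785 in KO IP and 0.513 in IgG. In total RNA it was 1.16 and 1.05 in Imp2-/- tissue and 1.23, 1.20, 1.59 and 2.24 in wild-type tissue (libraries 16, 17, 15 and 20). Within each table every immunoprecipitate lay below every total RNA library, and the IgG library was the lowest of its table. The share of all gene pairs whose groups lie apart in this way was not computed.

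The ratio of Atp5k to Atp5j2 was 1.55, 2.83 and 3.36 in WT IP (libraries 21, 22 and 25), 1.28 and 1.04 in KO IP and 3.14 in IgG. It was 1.08 and 1.12 in KO total RNA and 1.12, 1.48, 2.44 and 1.499 in WT total RNA (libraries 16, 17, 15 and 20). In wild-type tissue each immunoprecipitate, IgG included, was above the total RNA of its own table, whereas in Imp2-/- tissue the groups overlapped. The margin in the knockout table was narrow, with 1.55 in library 21 against 1.48 in library 17. In the knockout table the ratio of Atp5k to Atp5g3 was 1.85 and 3.23 in WT IP. In WT total RNA it was 1.96 and 2.16, so these groups overlapped. It was 1.62 and 1.29 in KO IP, against 2.37 and 1.79 in KO total RNA. In the IgG table it was 4.23 in WT IP and 3.43 in IgG, against 3.79 and 3.76 in total RNA. The ratio of Atp5j2 to Atp5g3 was lower in every immunoprecipitate than in every total RNA library of its table. For these pairs too, the share of all gene pairs with groups apart was not computed. Together the 4 members of the knockout table took 0.746 and 0.915% of gene counts in WT IP, 0.744 and 0.699% in KO IP, 1.19 and 1.06% in KO total RNA and 1.003 and 1.11% in WT total RNA.

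**Figure D4:**
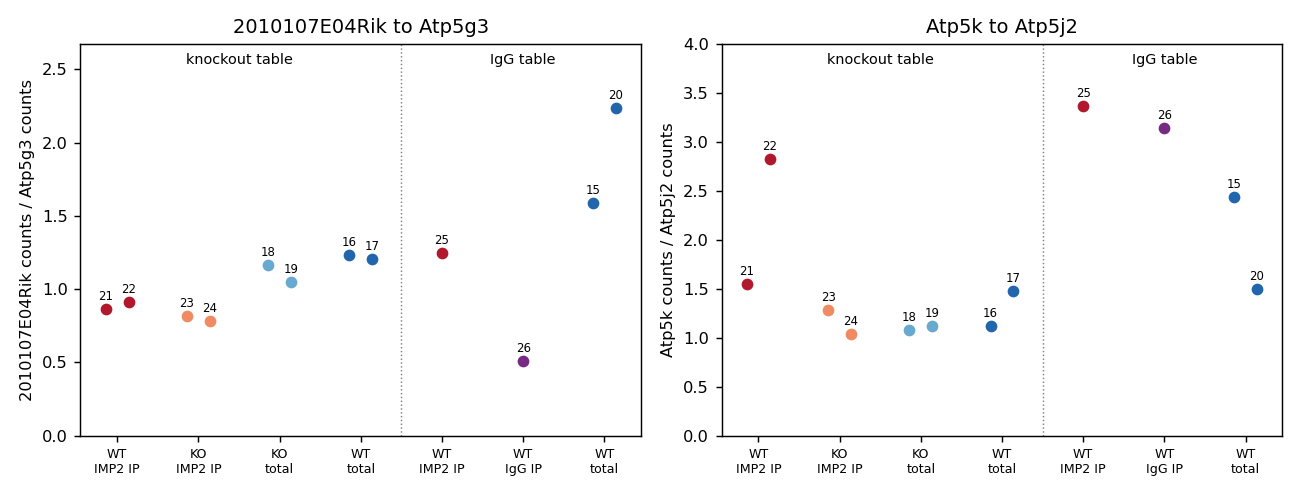
Ratio of counts of 2010107E04Rik to Atp5g3 and of Atp5k to Atp5j2 within each of the 12 brown fat libraries, by group, with marks for the table a library belongs to. The first ratio is 0.513 in IgG and 1.05 to 2.24 in total RNA, and within the knockout table the Atp5k ratio is 1.55 and 2.83 in WT IP, against 1.28 and 1.04 in KO IP. In the IgG table it is 3.36 in WT IP and 3.14 in IgG, against 2.44 and 1.499 in total RNA.

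The rest of the enzyme was counted beside these members. Of 9 head and stalk genes 7 were listed in the knockout table: 3 fell in WT IP over WT total (Atp5e, Atp5a1 and Atp5o), 4 fell in KO IP over KO total (Atp5e, Atp5o, Atp5h and Atp5d) and none rose, with medians of -0.18 and -0.52. Of all genes listed there, 12.4 and 15.7% were called lower in these comparisons. Atp5e, the small epsilon subunit of the stalk, had the lowest values, -1.26 ± 0.14 and -1.72 ± 0.14 (edgeR adjusted p = 0.000992 and 0.000193). It had 2050 and 2036 CPM in WT IP, against 5362 and 4399 CPM in WT total RNA, and the IgG library also held less of it than total RNA (log2 ratio -1.62, edgeR adjusted p = 0.0239). Atp5b, the catalytic beta subunit, had the highest values, -0.06 and 0.00, and neither passed the test. The difference between the recoveries of wild-type and Imp2-/- tissue ran from -0.12 for Atp5a1 to 0.54 for Atp5o, with 0 of 7 called.

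Beyond the enzyme, 1 of 5 inhibitor and assembly genes was listed, Atpaf2, a chaperone of the catalytic head, and it passed neither test (0.16 in WT IP and 0.36 in KO IP on the log2 scale). Of 3 carriers that exchange ATP, ADP and phosphate 2 were listed and 0 were called, the highest being the phosphate carrier Slc25a3 at 0.38 and 0.55. Of 7 crista organisers 3 were listed. Immt, the core of the MICOS complex at crista junctions, rose by 0.74 ± 0.12 in WT IP and 0.82 ± 0.12 in KO IP (edgeR adjusted p = 0.00466 and 0.00224), while Chchd6, another MICOS protein, fell by 0.73 ± 0.15 and 0.72 ± 0.14 (adjusted p = 0.0105 and 0.00710). Of 14 nuclear genes named after complex IV subunits 12 were listed. In WT IP over WT total 3 fell and 1, Cox6b1, rose by 0.75 ± 0.20, and in KO IP over KO total 5 fell and none rose, the lowest in both being Cox7a2l at -0.99 and -0.98. Of all 1189 genes, 148 were called lower and 118 higher in WT IP over WT total, and 187 lower and 126 higher in KO IP over KO total.

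The genes whose levels followed the mean of the 4 members most closely over the 8 libraries of the knockout table were Gabarap, an autophagy protein, with a Pearson r of 0.991, Rpl14, a ribosomal protein of the large subunit, with 0.990, and 2900010M23Rik, D8Ertd738e and Rps26 with 0.983 each. These libraries fall into immunoprecipitates and total RNA, which such a coefficient reflects, and it is given as a description.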

How the data were processed

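Counts were deposited by the authors as unscaled whole numbers of reads for each RefSeq transcript. The submitters' processing notes name TopHat2 2.0.8, Cufflinks 2.1.1 and mm10, without roles. The sources used here do not give the counting tool, the strand setting or the rule for listing a transcript. The knockout table lists 1579 transcripts and 12840 are in the IgG table. Rows without a symbol (117 and 835) were named by accession from RefSeq (114 and 813). The rest, 3 and 22 rows with 8.65 to 29.2% and 7.39 to 15.8% of the counts listed per library, stayed out of library sizes and tests. No sample column was left unused.

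Each gene is represented by its transcript of highest total count. Counts were scaled by TMM and tested with edgeR 4.0.16 (quasi-likelihood F test, R 4.3.3) after its filter on low counts, with Benjamini-Hochberg adjustment over all genes tested and a threshold of 0.05. The fits had 4, 1 and 6 residual degrees of freedom (knockout table, IgG table, both), and biological coefficients of variation of 15.3, 25.1 and 16.3%. The spread between replicates exceeded counting error (chi-square over its degrees of freedom 13.95 to 98.6). DESeq2 1.42.0, limma 3.58.1 (voom), other scalings, filters and row choices, leaving out each library, and a block of libraries by sample number (chosen after seeing the data) were alternatives. The scripts were tested on simulated data. Sequences, gene names and positions come from RefSeq, GRCm38.p6, and 7 of the 8 members had a promoter entry.

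The members and gene lists were chosen with earlier results of these data known. All members are named, and other lists are named by their highest and lowest gene and those that passed. IgG over total RNA in both tables, and the recovery in KO IP against that in IgG, were chosen after seeing the data. A planned ratio between the c subunit paralogs was not computed, since Atp5g3 alone was listed.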

Additional observations from a re-analysis of the deposited data

How the results depend on the processing

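Of the counts of members called, 191 alternatives kept the count within 1.5 times, 4 raised it and 7 lowered it. Of the values of single members, 836 stayed on their side of the threshold, 10 passed it newly, 20 lost it and 0 reversed. Most of those that lost it were Atp5g3 and Atp5k in KO IP over KO total. In KO IP over KO total, 2 members were called with library size alone and with upper-quartile scaling, and 2 to 3 when leaving out each library. In WT IP over KO IP, DESeq2 called 1 member, Atp5k. In WT IP over IgG with both tables, leaving out each library gave 0 to 1. In KO recovery over IgG recovery, DESeq2 and limma-voom each called 1, and leaving out each library gave 0 to 1, in each case 2010107E04Rik. Over all genes and alternatives, the calls of WT IP over WT total ran from 32 to 311 higher and 61 to 335 lower (118 and 148 as reported), those of KO IP over KO total from 47 to 338 and 87 to 348 (126 and 187), and those of IgG over WT total in its own table from 41 to 214 lower (136). Leaving out total RNA library 15 or 20 in the IgG table left no residual degree of freedom and was not run, nor was the c subunit ratio. The labels pair no libraries and the groups share no replicate number. In the knockout table, immunoprecipitate and total RNA libraries whose sample numbers lie 5 apart deviated together from their group means (Pearson r across 1189 genes 0.716 in wild-type and 0.802 in Imp2-/- tissue), a hint from the data and not from the design. A replicate block of these pairs, chosen after seeing the data and leaving 2 residual degrees of freedom, called 311 genes higher and 335 lower in WT IP over WT total, with 3 members (Atp5g3 added at -0.33 ± 0.08, edgeR adjusted p = 0.00856), and 338 and 348 in KO IP over KO total, with 4 members. The recovery difference of Atp5k under the block was 0.77 ± 0.16 (edgeR adjusted p = 0.125), and 0 members were called there. The causes were not tested.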
